A study of Mus musculus with 3 samples.

Results

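Interferon response and major histocompatibility complex (MHC) genes were examined in sorted olfactory sensory neurons with and without overexpression of Tet3, a dioxygenase that turns 5-methylcytosine into 5-hydroxymethylcytosine. They were chosen by name: the MHC rows (symbols starting with H2-), the class I light chain and peptide loading genes, and the Ifi, Ifit, Irf, Stat, Oas, Gbp, Mx, Tlr and related symbols. This gave 118 of the 34617 gene rows in the table. The choice used no measured value, but earlier results of these data were known when it was made. OMP-ires-EGFP positive cells of C57BL/6J mice gave the mOSN library. For the O/Tet3 library, cells were sorted from OMP-tTA / tetO-Tet3-GFP mice of strain Fvb, in which a driver at Omp, active in mature olfactory neurons, switches on Tet3-GFP. All animals were 4 weeks old and the tissue was the main olfactory epithelium. Each library is total RNA depleted of ribosomal RNA, and each group has 1 library. Genotype, strain, driver and library therefore differ together and cannot be told apart, no test between groups was possible, and every difference below describes these 2 libraries without a replicate check. The series' remaining sample, immunoprecipitated DNA, was not analysed here.

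MHC class I molecules pair a heavy chain with the light chain B2m and carry peptides, pumped into the endoplasmic reticulum by Tap1 and Tap2, to the cell surface. MHC class II molecules present peptides from endosomes, mostly on specialised immune cells. Interferons signal through Jak kinases to Stat factors and Irf9, which switch on antiviral effectors such as the Oas, Ifit, Gbp and Mx families, and sensors of viral nucleic acids start that response. Neurons usually hold class I molecules at low levels, while vomeronasal neurons are known for H2-M10 and related class Ib genes.

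The files give log2(value + 1) per row and library. The linear unit is not named, so the numbers after removing the log are called values here. The log2 ratio is the O/Tet3 over the mOSN log2(value + 1), which understates differences of low genes, and folds are ratios of the values. Rows that reached a value of 1 in at least 1 library were compared, and a compared row counted as higher or lower where value + 1 differed at least 2-fold. Read counts are not in the table. Steps in the values of low genes put 1 read at a 1.89-fold larger value in O/Tet3 than in mOSN. For olfactory receptor rows 1 read was worth about 0.0501 in O/Tet3. The mOSN step was not read from its own rows: dividing by that 1.89 gives 0.0265. In a row of that length a value of 1 then stands for about 19.97 reads in O/Tet3 and 37.7 in mOSN. Tet3 was at 3.72 in mOSN against 145 in O/Tet3, which goes with the labels. Omp was at 298 and 139, and 9 of the 10 mature olfactory neuron markers were lower in O/Tet3, while 4 of the 7 immature neuron markers were higher. Genes known for their part in antigen presentation and interferon signalling are given below beside these shifts, and the part of the shifts in them was not tested.

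Of the 118 members, 36 were compared, and 12 were higher and 3 lower in O/Tet3. Among all 12943 compared rows, 16.5% were higher and 12.0% lower, and among the 12318 that are neither olfactory receptors nor small RNAs 16.7% and 8.53% were. The members' shares were 33.3% and 8.33%, and their median log2 ratio was 0.65 against 0.21 over all compared rows. After the median of rows that reached 1 in both libraries (0.21) was subtracted, 8 of the 36 members were higher and 4 lower, against 11.3% and 15.1% of all compared rows. The higher count rests largely on rows that are low in mOSN. Of the 36 members, 16 (44.4%) reached a value of 1 in O/Tet3 only, against 12.3% of all compared rows, and 9 of the 12 higher members are among these 16. A row that passes through O/Tet3 alone has to be above mOSN. Of all 1593 such rows 52.4% were called higher, and of the 16 members 56.2%. Of the 2 members that reached 1 in mOSN only, H2-T24 was called lower and Stat5b was not, against 64.0% of such rows called lower. In the 18 members that reached 1 in both libraries, 3 were higher and 2 lower (16.7% and 11.1%), against 13.1% and 6.50% of the 9934 rows of that kind. Their median log2 ratio was 0.22 against 0.21.

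**Figure D1:**
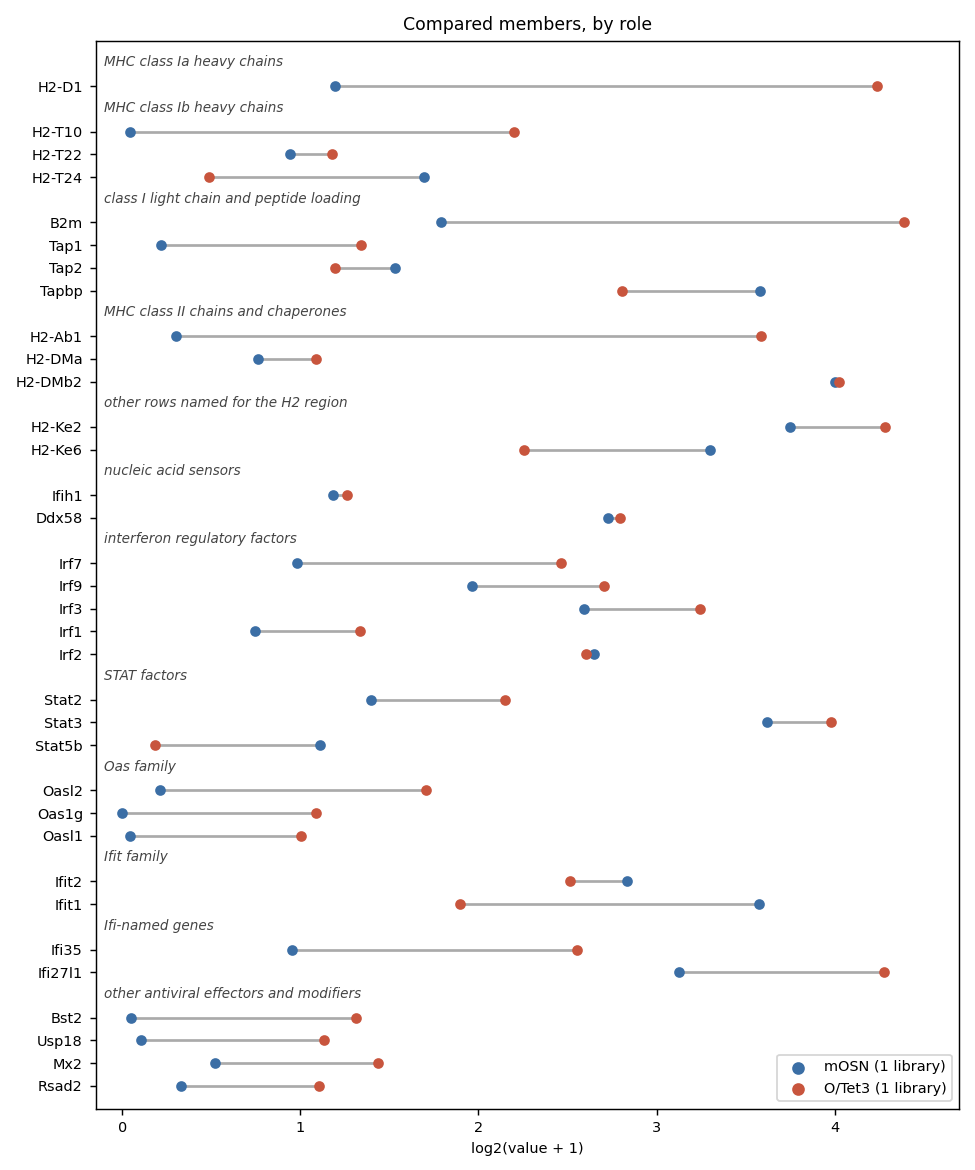
Log2(value + 1) of 34 of the 36 compared members in the mOSN library (blue) and the O/Tet3 library (red), 1 library each, grouped by role. H2-Ab1, H2-D1, B2m and H2-T10 have the longest lines toward O/Tet3, and Ifit1 has the longest line toward mOSN.

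Class I genes had some of the largest ratios among the members. H2-D1, a classical class I heavy chain, was at 1.29 in mOSN against 17.9 in O/Tet3, 13.9-fold higher (log2 ratio 3.04). B2m, the light chain that all class I molecules share, was at 2.45 and 19.95, 8.14-fold higher (log2 ratio 2.60). Tap1, a subunit of the peptide transporter, was at 0.163 and 1.54 (log2 ratio 1.12), and after centring it was at 0.92 and no longer counted as higher. The other loading genes among the members did not follow. Tap2, the transporter's partner subunit, was at 1.89 and 1.29, and Tapbp (tapasin), which bridges the transporter to the heavy chain, was at 10.98 and 5.99. Nlrc5, the class I transactivator, was at 0.00309 and 0.0174. Outside the members, Canx (71.2 and 198) and Pdia3 (60.2 and 139) were higher, while Calr (184 and 147) was within 2-fold of value + 1.

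The other class Ia rows were low in both libraries. H2-K1, the second classical heavy chain, was at 0.544 and 0.424, and H2-K2 was at 0.304 in mOSN but listed at 0 in O/Tet3. The class Ib rows H2-T10 and H2-T24 differed in opposite directions. H2-T10 was at 0.0324 and 3.59, the largest fold of any member above 0 in both libraries, at 111. Its mOSN value is near the 0.0265 of 1 read in a row of receptor length, so the size of that fold rests on very few reads. H2-T24 was at 2.24 and 0.400, 5.59-fold lower in O/Tet3. H2-T22, close in sequence to H2-T10, was at 0.918 and 1.26. Of the 26 class Ib rows, 23 stayed under 1 in both libraries and 8 were listed at 0 in both. H2-T23, which encodes the ligand of inhibitory natural killer receptors, was at 0.924 and 0.551, and H2-Q4 was at 0.372 and 0.627. The 6 H2-M10 rows summed to 0.442 in mOSN and 0.123 in O/Tet3, where only H2-M10.2 was above 0.

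Class I heavy chains resemble each other closely, and the strains carry different MHC haplotypes. The submitters' processing notes name build mm9, the genome of C57BL/6J, so reads of the Fvb library can miss their row or be counted on another. The 29 class I heavy chain rows together summed to 7.94 in mOSN against 25.8 in O/Tet3, 3.25-fold higher. Without H2-D1 the sums were 6.65 and 7.91, and without H2-D1 and H2-T10 they were 6.62 and 4.32. The direction of the sum without those rows was the opposite. A row outside the members bears on this. Gm11127, to which the RefSeq gene table gives H2-K1 as a synonym, was at 1.56 in mOSN against 96.7 in O/Tet3, 61.9-fold higher (log2 ratio 5.25), and was named here after its values were seen. With it the class I sum was 9.50 and 123. Haplotype and genotype cannot be told apart for any of these rows, nor strain and genotype for B2m, which lies on another chromosome.

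Of the MHC class II rows only H2-Ab1 differed. H2-Ab1, the beta chain of the classical class II molecule, was at 0.233 in mOSN against 11.01 in O/Tet3, 47.3-fold higher (log2 ratio 3.28). Its partner, the alpha chain H2-Aa, was at 0.372 and 0.235, and the beta chain H2-Eb1 at 0.259 and 0.0385. Cd74, the invariant chain that escorts class II molecules, was at 0.255 in mOSN but listed at 0 in O/Tet3, and Ciita, the class II transactivator, was at 0.0744 and 0.0429. In these values neither alpha chain, invariant chain nor transactivator went with H2-Ab1. The differing haplotypes apply to the class II H2 rows too, so Fvb reads can miss such a row or be counted on another. Haplotype and genotype cannot be told apart for these rows either. The peptide exchange factors were at close values: H2-DMb2 at 15.0 and 15.3, its near-identical copy H2-DMb1 at 0.790 and 0.875, and their partner H2-DMa at 0.696 and 1.13. Without H2-Ab1 the 9 other class II rows summed to 17.2 in mOSN and 17.5 in O/Tet3.

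Markers of the immune cells that normally carry class II were low. All 15 macrophage and microglia markers in the table were under 1 in both libraries, and they summed to 2.40 in mOSN and 1.62 in O/Tet3. C1qb, C1qc and Fcer1g were listed at 0 in both. The 8 B cell and dendritic cell markers summed to 0.817 and 0.370, with Cd79a and Cd209a among those listed at 0 in both. The 10 T and natural killer cell markers summed to 1.31 and 1.05, most of it from Cd3d at 1.16 and 0.743, and Cd3e, Cd3g and Ncr1 were among 5 listed at 0 in both. The summed level of each of these lists was lower in the O/Tet3 library, though single markers such as Aif1 (0.604 and 0.832) had larger values there. The part of such cells in the values of H2-Ab1, H2-D1 and B2m was not tested. Endothelial markers summed to 1.45 and 1.97, with Cdh5 and Cldn5 listed at 0 in both, and Vwf at 1.28 and 1.30.

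A pair of rows named for the H2 region encode no MHC molecule. H2-Ke2, a subunit of the chaperone prefoldin, was at 12.4 and 18.5. H2-Ke6, a steroid dehydrogenase family enzyme, was at 8.85 and 3.78, 2.34-fold lower in O/Tet3 (log2 ratio −1.04).

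**Figure D2:**
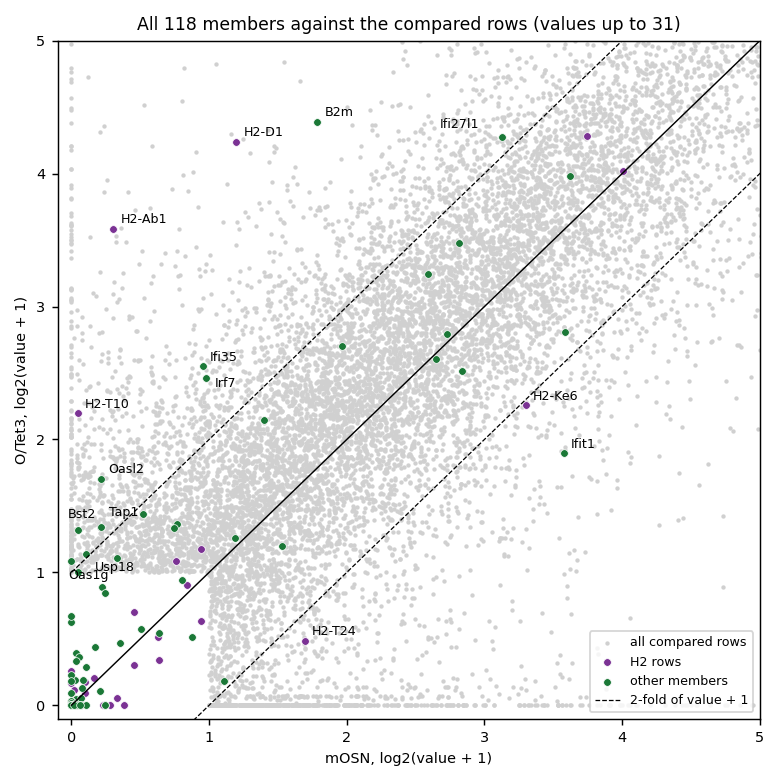
Log2(value + 1) in O/Tet3 against mOSN for all 118 members (H2 rows purple, others green) over all compared rows in grey, with the line of equality and dashed lines at 2-fold of value + 1. The 12 members called higher and the 3 called lower are named, and 82 members lie in the corner where both values are under 1.

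The sensors of viral nucleic acid were at close values in the 2 libraries. Ddx58 (RIG-I), a sensor of viral RNA ends, was at 5.62 and 5.94, and Ifih1 (MDA5), a sensor of long double-stranded RNA, at 1.27 and 1.40. Zbp1, a sensor of Z-form nucleic acid, was low at 0.0228 and 0.260. Of the 9 Toll-like receptors, Tlr3 was highest, at 0.744 and 0.926, and the others did not exceed 0.0238 in either library. Tlr1, Tlr2, Tlr5 and Tlr6 were listed at 0 in both.

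The transcription factors of the pathway lay within 2-fold of value + 1 except Irf7. Irf7, the factor that amplifies type I interferon production, was at 0.970 in mOSN against 4.52 in O/Tet3, 4.66-fold higher (log2 ratio 1.49). Stat2 and Irf9, parts of the complex that carries the type I interferon signal, had ratios on the same side. Stat2 was at 1.63 and 3.44, and Irf9, the DNA-binding subunit, at 2.90 and 5.52. These were 2.11-fold and 1.91-fold higher in their values, and neither was counted as higher. The fold of Irf9 lies within 2% of the 1.89 that equal read numbers in the 2 libraries would give. Irf1, the main factor of the interferon gamma response, was at 0.674 and 1.52, and Irf3, which sensors activate directly, at 5.03 and 8.46. Irf2, which restrains Irf1, was at 5.27 and 5.08. Irf5, an activator in myeloid cells, was at 0.186 and 0.792, and the lymphoid and myeloid factors Irf4 and Irf8 were at 0.0276 and 0.0778 in mOSN but listed at 0 in O/Tet3. Stat3, the main factor of the interleukin-6 family, was at 11.3 and 14.8. Stat5b, which serves growth hormone and other cytokines, was at 1.16 and 0.137, 8.48-fold lower in its values (log2 ratio −0.93), and became a lower call with centring.

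Oas and other effector rows were low in mOSN. Oasl2, an Oas-like antiviral protein, was at 0.160 in mOSN against 2.26 in O/Tet3, 14.1-fold higher (log2 ratio 1.49). Its relative Oasl1 was at 0.0323 and 1.004 (log2 ratio 0.96). Oas1g, one of the synthetases that make a second messenger when they bind double-stranded RNA, was listed at 0 in mOSN but reached 1.12 in O/Tet3, and its neighbour Oas1a was listed at 0 and at 0.591. The 8 Oas1 rows, which resemble each other and could share reads, summed to 0.475 and 2.92. Of all 12 Oas rows, 3 were compared, all through O/Tet3 alone, and 4 were listed at 0 in both libraries, among them Oas2.

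Bst2 (tetherin), which holds budding virus at the cell surface, was at 0.0341 and 1.49 (log2 ratio 1.27). Usp18, which strips Isg15 from proteins and damps the receptor, was at 0.0777 and 1.20 (log2 ratio 1.03). Mx2, a dynamin-like antiviral GTPase, was at 0.435 and 1.71, and Rsad2 (viperin) was at 0.255 and 1.15, both under the 2-fold of value + 1. Isg15, the ubiquitin-like modifier, was at 0.554 and 0.459, and Mx1 was at 0.0412 and listed at 0. All 4 compared effectors of this group passed through O/Tet3 alone. Their mOSN values ran from 0.0341 to 0.435, few reads for a row of receptor length, so folds there rest on small counts. Ifi35 was at 0.934 and 4.86, 5.20-fold higher (log2 ratio 1.60), and Ifi27l1 was at 7.72 and 18.4 (log2 ratio 1.15, or 0.95 after centring). Ifi30, a lysosomal thiol reductase of class II presentation, was at 0.835 and 0.430.

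In the Ifit family only Ifit1 was called lower. Ifit1, which binds viral RNA that lacks cap methylation, was at 10.9 in mOSN against 2.73 in O/Tet3, 4.00-fold lower (log2 ratio −1.68), the lowest ratio of any compared member. Ifit2 was at 6.13 and 4.72. Ifit3 was listed at 0 in mOSN but reached 0.546 in O/Tet3. The effectors thus had no common direction: Ifit1 was lower, Isg15 was at close values, and Oasl2, Bst2 and Usp18 were higher. All 11 Gbp rows, the guanylate-binding proteins of the interferon gamma response, were under 1 in both libraries. They summed to 0.150 and 0.698, with Gbp7 highest in O/Tet3 at 0.315 against 0.0234, and 4 were listed at 0 in both.

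The 82 members under 1 in both libraries were not compared. Of these, 25 were listed at 0 in both, 10 in mOSN only and 16 in O/Tet3 only. Among the 57 above 0 in either, 31 (54.4%) had the larger value in O/Tet3, and among the 9917 such rows over all genes, 45.1% did. An exact 0 can be a failed estimate, and a 0 in O/Tet3 rests on fewer reads per unit of value. H2-Bl, at 0.0682 and 0.129, and H2-M3, at 0.0163 and 0.0307, had folds within 2% of that 1.89, as Irf9 did.

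Promoter windows were searched for the interferon-stimulated response element core, which is GAAA, any 2 bases and GAAA again, and the gamma-activated site, which is TTC, any 3 bases and GAA, on both strands. RefSeq windows on GRCm38.p6, which run from 250 bases before to 50 bases after a gene's start, were matched to 85 of the 118 members. The response element core was in 25 of the 85 (29.4%), against 3.99% of 27025 genes in the promoter table, and the gamma-activated site in 17 of the 85, against 9.55%. Motif matches can overlap, as they do in Bst2, and members of a family share promoter sequence. Of the matched members called higher, 3 of 8 (37.5%) held the response element core, and 6 of the 17 within 2-fold of value + 1 (35.3%) did. With 8 and 17 members, shares this close are a description only. The stretches below are of compared members that hold the core upstream of their start and differ in direction. B2m, Bst2 and Oas1g were higher, Ifit1 was lower, and Rsad2 and Stat2 were within 2-fold of value + 1. The values themselves were 4.52-fold (Rsad2) and 2.11-fold (Stat2) larger in O/Tet3. H2-T22 and Irf2, also within 2-fold of value + 1, hold the core upstream too and are not printed. Capitals mark each match of the core on either strand, and sequences run 5′ to 3′ on the gene's strand.
B2m, chr2:122147523-122147582, plus strand: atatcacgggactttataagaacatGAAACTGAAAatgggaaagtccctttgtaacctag
Bst2, chr8:71537568-71537627, minus strand: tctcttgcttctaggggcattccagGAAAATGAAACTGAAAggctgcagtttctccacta
Oas1g, chr5:120887614-120887656, minus strand: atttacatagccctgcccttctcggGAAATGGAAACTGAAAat
Ifit1, chr19:34640760-34640819, plus strand: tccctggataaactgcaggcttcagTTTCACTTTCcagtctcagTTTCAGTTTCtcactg
Rsad2, chr12:26456538-26456597, minus strand: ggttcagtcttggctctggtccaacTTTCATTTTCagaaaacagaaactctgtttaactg
Stat2, chr10:128270251-128270310, plus strand: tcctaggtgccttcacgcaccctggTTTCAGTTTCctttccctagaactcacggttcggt
Bst2 and Oas1g each hold overlapping copies of the core, and Ifit1 holds separate copies in the reverse orientation, yet Ifit1 was 4.00-fold lower while Bst2 was higher. A match is a description of letters in the window and names no bound factor.

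Genes of the same pathways outside the members were read from fixed lists. The list counts below stand beside 16.5% higher and 12.0% lower over all compared rows. Among all rows that reached 1 in O/Tet3 only, 52.4% were higher. The interferons themselves were at or near 0: of 19 ligand rows, 17 were listed at 0 in both libraries, among them Ifnb1 and Ifng. Ifna4 was at 0.212 in mOSN but listed at 0 in O/Tet3, and Ifnk was at 0.384 and 0.0606. Of 14 compared receptor and proximal signalling genes, 3 were higher and 1 lower, and their median log2 ratio was 0.15. The kinase Jak2 was at 6.68 and 23.7, the phosphatase Ptpn6 at 6.96 and 22.4, and the feedback inhibitor Socs3 at 0.437 and 2.67. Il10rb, a shared subunit of the lambda interferon receptor, was lower at 6.24 and 2.46. The type I receptor subunits Ifnar1, at 7.52 and 14.3, and Ifnar2, at 7.37 and 7.97, were within 2-fold of value + 1.

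Of 10 compared sensing adaptors and kinases, 6 were higher and 1 lower (median log2 ratio 1.05). Irak4, the kinase downstream of Toll-like receptors, was at 0.356 and 6.59. Traf3, an adaptor on the way to interferon induction, was lower at 13.3 and 4.04. Dhx58, a relative of Ddx58, was at 0.101 and 1.53, and Traf6 at 0.742 and 2.75. Irak4, Dhx58 and Traf6 reached 1 in O/Tet3 only, and so did every other higher gene of this list except Tbk1. That kinase was at 4.43 and 10.7. The count of higher genes and the median thus rest largely on rows that are low in mOSN.

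Of 10 compared class I presentation genes outside the members, 6 were higher and 0 lower (median log2 ratio 1.32). The proteasome activator subunits Psme1, at 4.45 and 18.2, and Psme2, at 4.46 and 17.0, were both higher. Cd1d1, which presents lipids, was listed at 0 in mOSN but reached 2.19 in O/Tet3, and the chaperone calnexin (Canx) was at 71.2 and 198. The immunoproteasome subunits, by contrast, stayed under 1: Psmb8 and Psmb9 were listed at 0 in mOSN but reached 0.0535 and 0.389 in O/Tet3, and Psmb10 was at 0.955 and 0.919. Of 4 compared class II presentation genes only the protease cathepsin L (Ctsl) was higher, at 6.86 and 30.4 (list median 0.56). Rfxap, Rfx5 and Lgmn were at 2.99 and 5.92, 0.933 and 1.43, and 23.5 and 20.8.

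Of 21 other compared interferon-stimulated genes, 7 were higher and 0 lower (median log2 ratio 0.71, against 0.21 over all compared rows). Dhx58 is in this list and in that of the sensing adaptors, and both counts of higher genes include it. Eif2ak2 (PKR), a kinase that double-stranded RNA activates, was at 1.29 and 6.30. The Isg15-activating enzyme Uba7 was at 0.0228 and 1.73, and the ubiquitin ligase Herc6 at 0.0654 and 1.70. Of the higher genes of that list only Eif2ak2 reached 1 in both libraries. The compared genes that were not called higher were within 2-fold of value + 1. Ifitm3, not compared, was at 0.715 in mOSN but listed at 0 in O/Tet3.

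**Figure D3:**
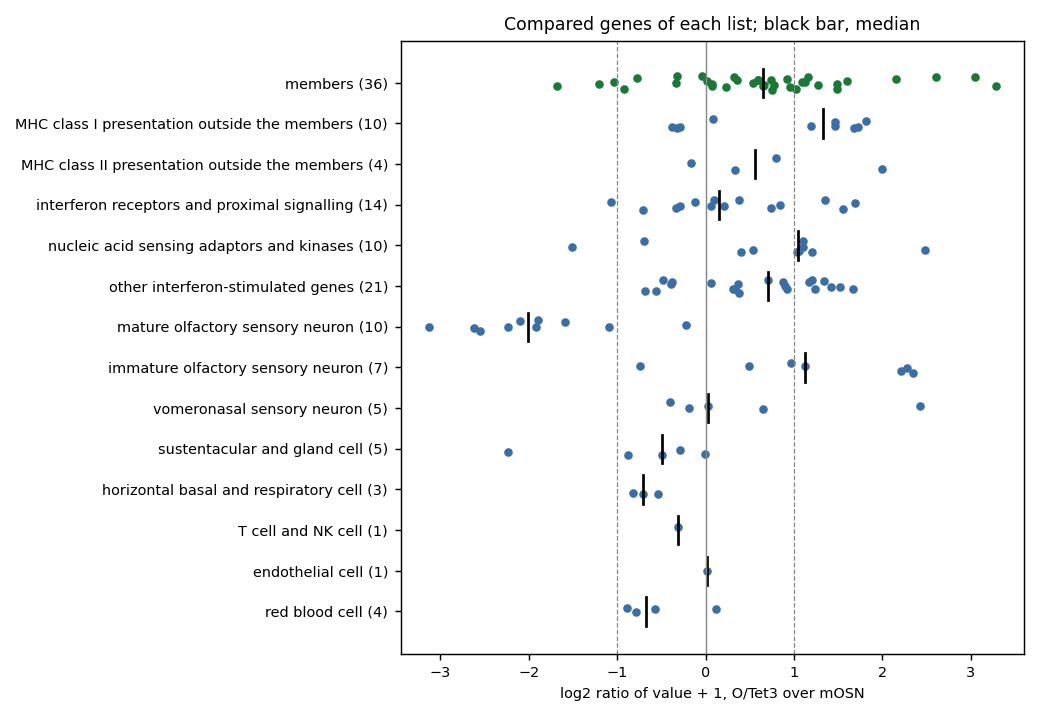
Log2 ratio of value + 1 (O/Tet3 over mOSN) for each compared gene of the members and of the fixed pathway and marker lists, with the number of genes in parentheses and the median as a black bar. The mature neuron markers have a median of −2.01 and the immature neuron markers one of 1.12, and the compared members lie between −1.68 and 3.28. Macrophage, B cell and interferon ligand lists are absent because none of their genes was compared.

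Other marker lists moved less or with fewer genes. Of the mature neuron markers Gnal was highest in mOSN, at 411 and 95.0 in O/Tet3. Among immature neuron markers Stmn2 was highest, at 27.7 and 39.3. Of 5 compared vomeronasal markers, 1 was higher (Gnai2, at 0.166 and 5.25), and Gnao1 was highest at 34.3 and 30.0. Of 5 sustentacular and gland markers, 1 was lower, Ugt2a1 at 15.6 and 2.53, and of basal and respiratory markers Foxj1 was highest at 10.9 and 7.22. Hba-a2, a red blood cell gene, was at 39.9 and 21.0. In these bulk samples fewer cells of a type and less RNA per cell cannot be told apart.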

How the data were processed

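RNA of sorted cells was measured in 2 libraries, 1 per group. Per the labels' protocols, ribosomal RNA was removed with the RiboMinus kit, and ScriptSeq libraries were amplified for 16 cycles. Bowtie, Bowtie2, Cuffdiff and build mm9 are listed in the submitters' processing notes. Versions, roles, annotation and strand setting are not given in the sources used here, so antisense and near-identical genes could not be separated. The authors' deposited table holds log2 values per gene row and library and their difference. Undoing log2(value + 1) gave numbers with 6 digits or fewer in 99.4% (mOSN) and 99.3% (O/Tet3) of higher values. The deposited difference equals O/Tet3 minus mOSN within 8.0e-14. Columns were assigned by name.

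From these values, log2 ratios, calls, list medians and sums were computed with python 3.11.15, pandas 2.3.3 and numpy 2.4.6. The call step was run on rows simulated from mOSN values of at least 5 with large planted changes. That run checks the computation only and does not cover rows with lower values. A few genes are not reported here by name. The other named genes are all compared members, up to 4 genes per pathway list with the largest ratios, and the highest marker of each list. A few lower members, markers and further list genes were named beside them for their role. Members and lists were chosen with earlier results of these data known. The alternatives changed the pseudocount, floor, fold, centring and the rows included. Read depth is not in the table, so no interval was computed.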

Additional observations from a re-analysis of the deposited data

How the results depend on the processing

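The counts and the median of the members were recomputed under alternatives to the floor, pseudocount, fold, centring and rows; leaving out rows listed at 0 in 1 library was chosen after seeing the data. Of 25 alternative values, 20 stayed within 1.5 times the reported count or within the quartiles of the members' log2 ratios (0.06 to 1.13), and 5 did not. Only a median can change sign, and none did. The quartile range is wide, so a median inside it can still lose its distance from all rows. With a floor of 1 in both libraries the members' median was 0.22 against 0.21 over all such rows. The 12 higher of 36 members became 4 of 16 with a floor of 5 in either library (19.6% of all rows under that rule), 3 of 18 with a floor of 1 in both libraries (13.1%) and 5 of 36 at 3-fold of value + 1 (5.76%). The 3 lower members became 1 of 36 at 3-fold (5.20% of all rows) and 1 of 27 without the H2 rows (12.0%). With a pseudocount of 0.1, 18 of 36 members were higher and 4 lower, against 23.4% and 15.6% of all rows, and the 15 calls made with a pseudocount of 1 all remained. Centring removed Ifi27l1, Oas1g, Tap1 and Usp18 from the higher calls and added Stat5b to the lower ones. Medians ran from 0.08 with no floor to 0.97 with a pseudocount of 0.1. Low values limit most effector rows, since 16 members passed through O/Tet3 alone. No paired analysis was possible because neither group has more than 1 library.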

Other observations

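Rows that lie among the MHC rows but are no members were looked up by gene order on chromosome 17 in the RefSeq table of GRCm38.p6, between the outermost of 40 H2 rows and without olfactory receptors. This was chosen after the values were seen. Of 68 compared neighbours, 13 (19.1%) were higher and 4 (5.88%) lower in O/Tet3, against 16.7% and 8.53% of the 12318 compared rows that are neither receptors nor small RNAs. Their median log2 ratio was 0.39 against 0.25. After Gm11127 the largest ratios were those of the inducible heat shock pair, Hspa1a (0.725 in mOSN, 8.44 in O/Tet3) and Hspa1b (1.19 and 14.2), and of Ddah2, an enzyme that degrades methylated arginines (1.28 and 10.1). Among the lower neighbours the GABA receptor subunit Gabbr1 was at 35.4 and 11.7, and the chaperone Bag6, known for a part in antigen presentation, was at 29.9 and 14.1.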
